A study of Mus musculus with 12 samples.

Results

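The genes described are the machinery of DNA replication and S phase, a list of 43 mouse genes chosen by name, of which 41 were measured among 22180 genes on 12 single-channel microarrays. Rfc4 and Ccne2 were read only by probe sets annotated to more than 1 gene and are not analysed here. The arrays held RNA from mouse primary macrophages in 4 groups of 3. WT macrophages and KO macrophages were cultured without tumour cells and differed in genotype, wild type or knocked out for Cd36, a scavenger receptor that takes up fatty acids and oxidised lipoproteins. WT TAMs and KO TAMs, the tumour-associated macrophages, were cells of the same 2 genotypes cultured with the mouse multiple myeloma line 5TGM1 for 72 h. The medium of all groups was RPMI with fetal bovine serum, penicillin and streptomycin. The labels state hours in culture for the TAMs alone, so tumour cells and time may be mixed in what is called co-culture below. The sources used here do not give the way myeloma cells were taken out, the mice's age or sex, the kind of knockout, or whether the 3 arrays of a group stand for separate animals. The p-values thus cover only the spread between these arrays, part of which may be technical.

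DNA replication starts at origins, where the origin recognition complex with Cdc6 and Cdt1 loads the ring-shaped MCM helicase during G1. At the start of S phase Cdc45 and the GINS complex turn the helicase on, the polymerases copy both strands under the sliding clamp Pcna, and enzymes of nucleotide synthesis supply the building blocks. Cyclin E and the E2F transcription factors drive entry into S phase, and many genes of the machinery are known E2F targets. Macrophages differ in how far they divide in culture, and cells at rest express most of these genes at a low level.

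Levels are log2 intensities, and differences are log2 differences between group means ± standard error (limma, n = 3 arrays a group). The test was limma's, with Benjamini-Hochberg adjustment over all 22180 genes, and counts of higher, lower or called genes, like the words rose and fell, refer to an adjusted p under 0.05. All members except Orc1 had a mean level above 5.34, the median of the mean levels of all genes. No filter on level was applied, so every measured member was tested. Values of different genes come from different probe sets, and their levels are not set against each other.

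The targeted gene Cd36 lay between 12.10 and 12.53 on WT arrays, and between 8.45 and 9.66 on KO arrays, with 6 arrays each. The genotypes also differed in sex-linked genes. Xist, made from the inactive X chromosome, lay at 11.08 to 11.32 (WT) and 3.91 to 4.35 (KO), and the Y-linked Uty at 3.27 to 3.91 (WT) and 9.71 to 9.99 (KO). Differences between genotypes and differences that go with this sex-linked pattern cannot be told apart. Of the members only Pola1 lies on the X chromosome. Over the 12 arrays the 9 macrophage markers lay at 7.81 or above. Of the 9, 2 were higher and 3 lower in WT co-culture, 4 and 1 in KO co-culture, 1 and 1 in KO macrophages, and 2 and 0 in KO TAMs. Aif1 (7.81 to 10.47), the lowest, was lower in WT TAMs than in WT macrophages and higher in KO than in WT TAMs. Fcgr1 (10.23 to 11.73) was lower in KO than in WT macrophages. Mertk lay at 10.03 to 10.1 in KO and 9.12 to 9.29 in WT macrophages. Cd68 lay at 12.93 to 13.07 in WT TAMs and 12.19 to 12.25 in WT macrophages. The mean of the 16 measured myeloma and plasma cell markers lay at 6.05 to 6.12 (WT macrophages), 5.87 to 6.0 (WT TAMs), 5.86 to 5.94 (KO macrophages) and 5.91 to 5.98 (KO TAMs). Of the 16, 0 were higher and 3 lower in WT co-culture, 0 and 1 in KO co-culture, 0 and 3 in KO macrophages, and 2 and 1 in KO TAMs. Over all genes the shares higher and lower were 5.89% and 5.66% (WT co-culture), 2.90% and 3.63% (KO co-culture), 5.19% and 6.13% (KO macrophages) and 5.03% and 7.19% (KO TAMs). Among the 16 markers Jchain (3.28 to 3.84) and Tnfrsf17 (3.35 to 4.09) were low on all arrays, while Slamf7 (11.78 to 12.56) and Xbp1 (9.66 to 10.21) were high on all. Others varied, such as Prdm1 (7.32 to 8.83) and Cd79b (5.77 to 9.16). Cd79b lay at 7.77 to 7.96 (WT macrophages), 5.77 to 6.51 (WT TAMs), 9.04 to 9.16 (KO macrophages) and 6.13 to 8.3 (KO TAMs). In bulk RNA, fewer cells in S phase and less RNA per cell cannot be told apart.

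WT TAM 2 stood apart from the other WT TAM arrays. Averaged over the 41 members, the log2 level was 7.66, 7.67 and 7.67 on WT macrophage arrays 1, 2 and 3, and 7.95, 7.54 and 8.19 on WT TAM arrays 1, 2 and 3. It was 6.78, 6.88 and 6.88 on the KO macrophage arrays and 6.45, 6.66 and 6.47 on the KO TAM arrays. All 6 KO arrays thus lay below all 6 WT arrays. WT TAM 2 was the lowest WT TAM array in 36 of 41 members, and WT TAM 3 the highest in 38. These counts were not made over all genes, and members that vary together are not separate observations. The median SD over members was 0.331 in WT TAMs, 0.173 in KO TAMs, 0.091 in KO macrophages and 0.071 in WT macrophages, against 0.14, 0.144, 0.105 and 0.096 over all genes.

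Most members followed a similar pattern over the arrays. The correlation of each member with the mean of the other members over the 12 arrays had a median of 0.96 and was above 0.9 in 35 of 41, which describes arrays that fall into 4 groups. It was lowest for E2f1 (0.819), Brca2 (0.838) and Pcna (0.872). For deviations from the group means the correlation was weaker, with a median of 0.797 and 13 of 41 above 0.9. It was lowest there for Orc1 (0.372). The group means stood in the order WT TAM, WT macrophage, KO macrophage, KO TAM from high to low in 32 of 41 members (78%), as in 4.21% of all genes. The 9 others were Cdt1, Mcm10, Gins1, Gins3, Pold1, Fen1, E2f8, Chaf1b and Brca2. In 38 of 41 members all 6 KO arrays lay below all 6 WT arrays, as in 4.36% of all genes, and the 3 exceptions were Tyms, E2f1 and Brca2.

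**Figure D1:**
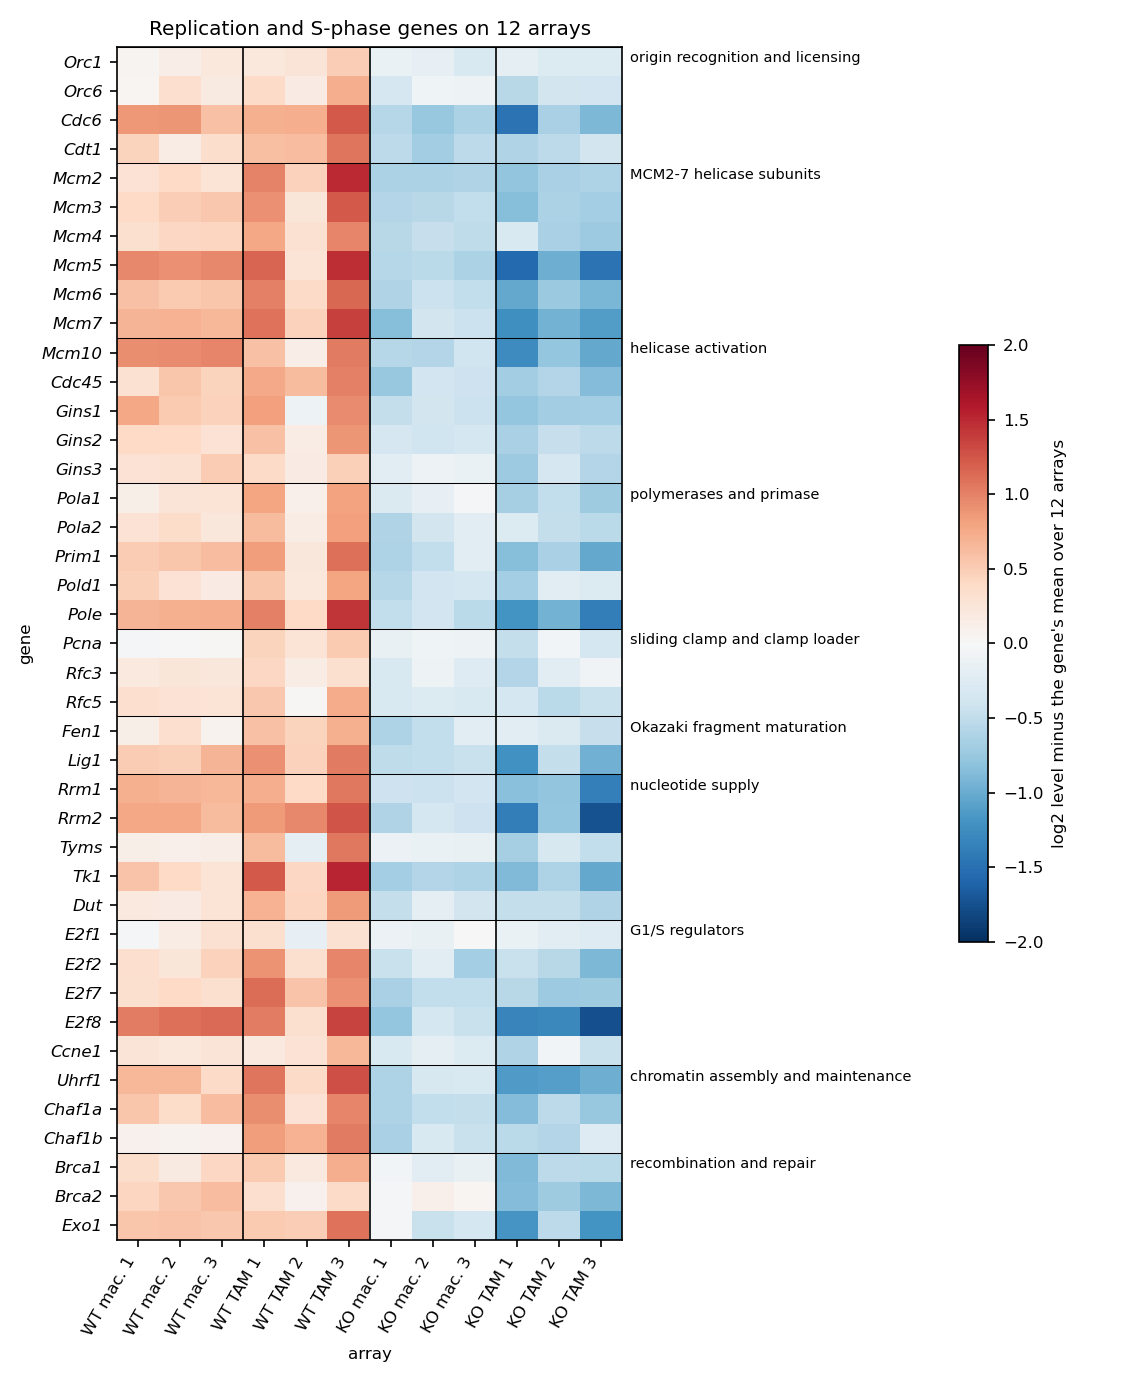
Log2 level of each of the 41 members (rows, grouped by role) on each of the 12 arrays (columns), minus the member's mean over the 12 arrays; red is above that mean and blue below. The 6 KO columns are blue in nearly every row and the WT columns red, and within the WT TAMs array 2 is paler than arrays 1 and 3.

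Promoter sequence was set beside these values because most members varied together over the arrays. The RefSeq windows (assembly GRCm38.p6) run from 250 bases before to 50 bases after each annotated start, and 36 measured members had at least 1. Mcm4, Gins1, Gins2, Pole and Exo1 had none in the table. The letters searched, on both strands, were the 4 forms of the E2F site TTTCCCGC, TTTCGCGC, TTTGCCGC and TTTGGCGC, the CCAAT box CCAAT, and TTTGAA, the core of the cell cycle genes homology region. An E2F word was present in 16 of 36 members (44.4%) and in 554 of 16990 measured genes with a window (3.3%). By word, TTTCCCGC was in 8 members, TTTCGCGC in 7, TTTGGCGC in 6 and TTTGCCGC in 0. CCAAT was in 22 of 36 members (61.1%) against 41.6% of genes, and TTTGAA in 6 (16.7%) against 17.8%.

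The start used by the table is not always the outer end of the gene in the same assembly. In 27 of the 36 members the annotated start of a window lay within 50 bases of that end. In the 9 others (Brca2, Cdc6, Dut, E2f1, E2f8, Mcm7, Orc1, Pola1 and Tk1) the annotated start of every window lay 73 to 3749 bases into the gene. The bases before that start thus lie partly or wholly inside the gene. With windows near the outer end only, a restriction chosen after seeing the data, an E2F word was present in 9 of 27 members (33.3%) and in 352 of 12484 measured genes (2.8%), CCAAT in 18 (66.7%) against 39.9% and TTTGAA in 4 (14.8%) against 17.1%.

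The 200 bases before the annotated start are shown for Mcm5 (chr8:75109309-75109508, plus strand), Mcm6 (chr1:128359706-128359905, minus strand) and E2f7 (chr10:110745239-110745438, plus strand), which have E2F words there, and for Rrm2 (chr12:24708054-24708253, plus strand) and Pcna (chr2:132253181-132253380, minus strand), which have none. They were picked after their values were seen, among members whose annotated start lies near the outer end: that of Mcm5 lies 41 bases into the gene and the other 4 at its end. Mcm5 and Rrm2 had large genotype differences in TAMs, and Pcna had the smallest in macrophages. Each runs 5′ to 3′ in the direction of the gene, and capitals mark the E2F words. In Mcm6 and Mcm5 a TTTGGCGC and a TTTCGCGC on opposite strands overlap in 1 run of capitals.
Mcm5: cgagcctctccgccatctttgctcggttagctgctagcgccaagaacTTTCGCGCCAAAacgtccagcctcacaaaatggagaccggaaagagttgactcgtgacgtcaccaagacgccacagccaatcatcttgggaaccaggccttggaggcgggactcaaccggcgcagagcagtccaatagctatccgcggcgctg
Mcm6: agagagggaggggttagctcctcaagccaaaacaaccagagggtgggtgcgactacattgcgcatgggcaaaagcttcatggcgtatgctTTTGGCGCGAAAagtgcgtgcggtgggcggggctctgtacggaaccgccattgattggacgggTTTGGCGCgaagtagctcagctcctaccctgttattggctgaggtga
E2f7: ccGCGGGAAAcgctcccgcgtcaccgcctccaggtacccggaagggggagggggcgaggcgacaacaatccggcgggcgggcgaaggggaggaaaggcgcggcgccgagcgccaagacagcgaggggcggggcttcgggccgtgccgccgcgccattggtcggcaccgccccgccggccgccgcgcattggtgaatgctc
Rrm2: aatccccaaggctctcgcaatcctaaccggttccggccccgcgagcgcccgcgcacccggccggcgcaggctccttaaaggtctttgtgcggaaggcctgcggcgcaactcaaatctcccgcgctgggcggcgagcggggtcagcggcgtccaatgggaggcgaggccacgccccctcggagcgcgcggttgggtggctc
Pcna: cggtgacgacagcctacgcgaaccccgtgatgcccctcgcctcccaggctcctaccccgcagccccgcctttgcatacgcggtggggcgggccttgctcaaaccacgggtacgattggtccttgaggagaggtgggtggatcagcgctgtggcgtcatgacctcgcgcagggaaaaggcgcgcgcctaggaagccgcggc
Counted from the annotated start, the words begin at -153 and -149 in Mcm5, at -110, -106 and -47 in Mcm6 and at -198 in E2f7. No match says only that these letters are not in this window.

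The largest differences in these genes lay between genotypes. In KO macrophages 35 of 41 members were lower than in WT macrophages and 0 were higher, against 6.13% of all genes lower and 5.19% higher. The median member difference was -0.89, or 53.9 percent of the WT intensity, with a range from -1.60 for E2f8 to -0.11 for Pcna, and the median of all genes was 0.04. In 40 of 41 members the 3 KO arrays lay below the 3 WT arrays, as in 17.7% of all genes. In KO TAMs 40 of 41 members were lower than in WT TAMs and 0 were higher, against 7.19% of all genes lower and 5.03% higher. Here the median member difference was -1.32, or 40.0 percent of the WT intensity, with a range from -2.35 for E2f8 to -0.36 for E2f1, and the median of all genes was 0.02. In 40 of 41 members the 3 KO TAM arrays lay below the 3 WT TAM arrays, as in 11.8% of all genes. Without WT TAM 2 and KO TAM 1, a pair taken from earlier results of these data, 37 members were lower in KO macrophages and 41 in KO TAMs. Over all 22180 genes, 2388 and 2611 were lower in this setting.

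Markers of another cell type moved with the genotype too. Of 14 measured fibroblast and stromal markers, 7 were lower in KO than in WT macrophages and 10 were lower in KO than in WT TAMs, with 0 higher in either. Over all genes 6.13% and 7.19% were lower in these comparisons, and 5.19% and 5.03% higher. The mean log2 level of the list ranged over 7.02 to 7.15 (WT macrophages), 5.41 to 5.54 (KO macrophages), 7.52 to 8.62 (WT TAMs) and 5.77 to 7.05 (KO TAMs). As summed intensity this was 3103 to 3608, 701 to 735, 5364 to 12828 and 975 to 3126. Lum (2.86 to 3.38) and Thy1 (4.94 to 5.53) were low on all 12 arrays, while Col1a1 ranged from 5.69 to 10.88 and Acta2 from 6.73 to 11.96. WT TAM 2 had the highest stromal mean (8.62) and the lowest member mean (7.54) of the WT TAMs. In KO TAMs the stromal means were 7.05, 6.77 and 5.77 on arrays 1, 2 and 3, beside member means of 6.45, 6.66 and 6.47. The part of these cells in the genotype result was not tested.

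**Figure D2:**
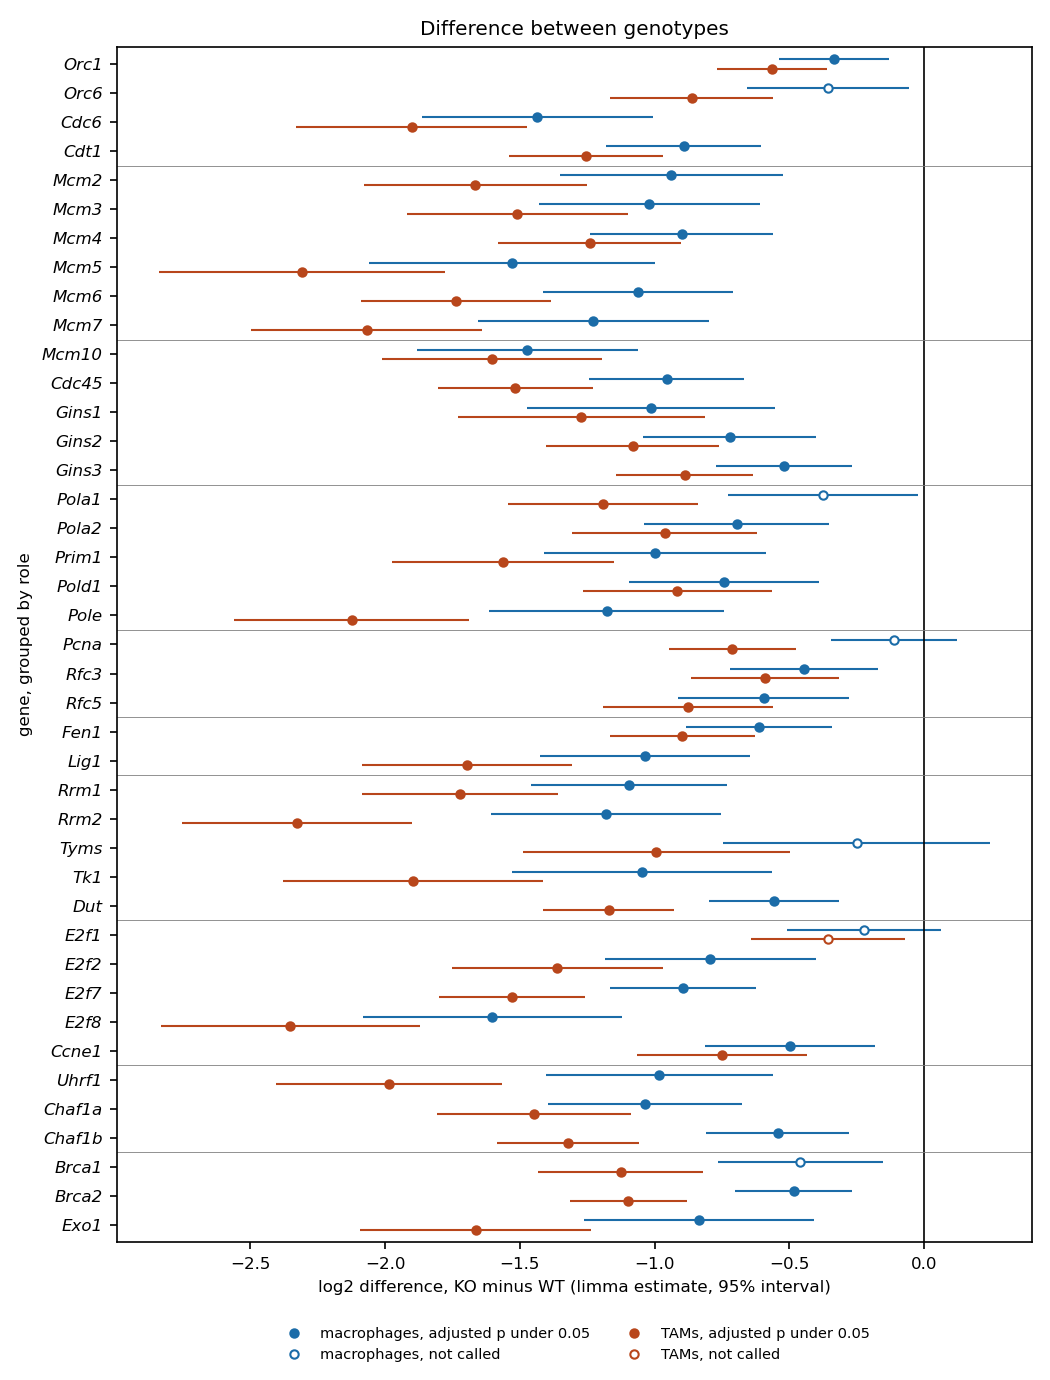
Log2 difference KO minus WT for each member with its 95% interval from the limma fit, in macrophages (blue) and TAMs (orange); filled points passed the test and open points did not. All points lie left of 0, from -0.11 (Pcna in macrophages) to -2.35 (E2f8 in TAMs), and 6 macrophage points and 1 TAM point are open.

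Among the 4 measured genes of origin recognition and licensing, 3 were lower in KO macrophages and 4 in KO TAMs. Cdc6, the loader that brings the helicase to origins, read 7.34, 7.36 and 7.05 in WT macrophages, 7.17, 7.20 and 7.70 in WT TAMs, 5.90, 5.72 and 5.83 in KO macrophages and 4.99, 5.82 and 5.57 in KO TAMs, for arrays 1, 2 and 3 in this order. Its WT and KO arrays did not overlap, and the difference was -1.44 ± 0.20 in macrophages (adjusted p = 0.00108) and -1.90 ± 0.20 in TAMs (3.73-fold lower, adjusted p = 0.000195). KO TAM 1 had the lowest Cdc6 level of all arrays. Cdt1, its partner in helicase loading, differed by -0.89 ± 0.13 in macrophages and -1.26 ± 0.13 in TAMs. Orc1, the largest subunit of the origin recognition complex, read 4.85, 4.93 and 5.02 in WT macrophages, 5.02, 5.06 and 5.29 in WT TAMs, 4.67, 4.63 and 4.50 in KO macrophages and 4.61, 4.52 and 4.54 in KO TAMs. All its levels lay below the median of all genes, and it differed by -0.34 ± 0.09 in macrophages (adjusted p = 0.0383) and -0.56 ± 0.09 in TAMs. The macrophage call of Orc1 was lost without any 1 of the 6 macrophage arrays (adjusted p = 0.0642 to 0.138). Orc6, a smaller subunit of the same complex, did not pass in macrophages (-0.36 ± 0.14, adjusted p = 0.128) and differed by -0.86 ± 0.14 in TAMs.

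All 6 subunits of the MCM helicase were lower in KO cells of both cultures. Mcm5 read 8.75, 8.72 and 8.76 in WT macrophages, 8.97, 8.08 and 9.27 in WT TAMs, 7.23, 7.26 and 7.16 in KO macrophages and 6.24, 6.83 and 6.33 in KO TAMs. The lowest WT value, on WT TAM 2, was above every KO value, and the difference was -1.53 ± 0.24 in macrophages (2.89-fold lower, adjusted p = 0.00224) and -2.31 ± 0.24 in TAMs (4.95-fold lower, adjusted p = 0.000208). Mcm6, whose promoter window is shown above with 3 E2F words, read 9.32, 9.26 and 9.29 in WT macrophages, 9.74, 9.12 and 9.89 in WT TAMs, 8.13, 8.31 and 8.25 in KO macrophages and 7.72, 8.0 and 7.83 in KO TAMs. It differed by -1.06 ± 0.16 in macrophages and -1.74 ± 0.16 in TAMs, with no overlap between genotypes. Mcm7 differed by -1.23 ± 0.20 and -2.07 ± 0.20, Mcm2 by -0.94 ± 0.19 and -1.67 ± 0.19, Mcm3 by -1.02 ± 0.19 and -1.51 ± 0.19, and Mcm4 by -0.90 ± 0.16 and -1.24 ± 0.16, in macrophages and TAMs. The 6 subunits form 1 ring, and their differences in TAMs spanned -1.24 to -2.31.

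The 5 factors that turn the helicase on were lower in KO cells of both cultures. Mcm10, which helps to activate the loaded helicase, read 8.07, 8.08 and 8.12 in WT macrophages, 7.73, 7.26 and 8.18 in WT TAMs, 6.56, 6.55 and 6.74 in KO macrophages and 5.88, 6.36 and 6.11 in KO TAMs. It was the member with the lowest adjusted p in macrophages (-1.47 ± 0.19, adjusted p = 0.000739), and it differed by -1.60 ± 0.19 in TAMs, where WT TAM 2 read closest to the KO arrays. Cdc45, the part of the active helicase that joins MCM and GINS, differed by -0.95 ± 0.13 in macrophages and -1.52 ± 0.13 in TAMs (adjusted p = 8.05e-05). The GINS subunits Gins1, Gins2 and Gins3 differed by -1.01, -0.72 and -0.52 in macrophages and by -1.27, -1.08 and -0.89 in TAMs. Gins3 lost its macrophage call without WT macrophage 3 (adjusted p = 0.065) and without KO macrophage 1 (adjusted p = 0.0584).

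Of the 5 polymerase and primase genes, 4 were lower in KO macrophages and 5 in KO TAMs. Pole, the catalytic subunit of the leading-strand polymerase epsilon, read 7.43, 7.46 and 7.48 in WT macrophages, 7.76, 7.16 and 8.18 in WT TAMs, 6.26, 6.36 and 6.21 in KO macrophages and 5.55, 5.80 and 5.38 in KO TAMs. KO TAMs were the lowest group without overlap with any other, and Pole differed by -1.18 ± 0.20 in macrophages (adjusted p = 0.00317) and -2.12 ± 0.20 in TAMs (adjusted p = 0.000115). A second, dim Pole probe set, with group means of 3.92 to 3.99, differed by 0.03 and -0.08, and with the mean of both the differences were -0.58 and -1.10. Pold1, the catalytic subunit of the lagging-strand polymerase delta, differed by -0.74 ± 0.16 and -0.92 ± 0.16. Prim1, the primase subunit that starts each new strand, differed by -1.0 ± 0.19 and -1.56 ± 0.19. Pola2, the accessory subunit of polymerase alpha, differed by -0.69 ± 0.16 and -0.96 ± 0.16. Pola1, the X-linked catalytic subunit of polymerase alpha, read 8.01, 8.15 and 8.17 in WT macrophages, 8.68, 8.0 and 8.71 in WT TAMs, 7.61, 7.73 and 7.86 in KO macrophages and 7.23, 7.40 and 7.18 in KO TAMs. Its macrophage difference of -0.37 ± 0.16 did not pass (adjusted p = 0.174) although the arrays did not overlap, and its TAM difference was -1.19 ± 0.16.

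Of the 3 measured genes of the sliding clamp and its loader, 2 were lower in KO macrophages and 3 in KO TAMs. Pcna, the clamp that tethers the polymerases to DNA, read 11.08, 11.12 and 11.13 in WT macrophages, 11.56, 11.39 and 11.63 in WT TAMs, 10.96, 11.02 and 11.02 in KO macrophages and 10.63, 11.06 and 10.76 in KO TAMs. The WT and KO macrophage arrays lay close together, with a difference of -0.11 ± 0.11 (95% interval -0.35 to 0.12, adjusted p = 0.58). In TAMs Pcna differed by -0.71 ± 0.11 (1.64-fold lower, adjusted p = 0.00144). The clamp loader subunits Rfc3 and Rfc5 differed by -0.45 ± 0.13 and -0.59 ± 0.15 in macrophages and by -0.59 ± 0.13 and -0.88 ± 0.15 in TAMs. Of the genes that finish Okazaki fragments, Lig1, the ligase that seals them, differed by -1.04 ± 0.18 in macrophages and -1.70 ± 0.18 in TAMs. Fen1, the nuclease that trims their flaps, differed by -0.61 ± 0.12 and -0.90 ± 0.12 by its brighter probe set and by -0.13 and -0.39 by its other probe set.

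In nucleotide supply, 4 of 5 genes were lower in KO macrophages and 5 in KO TAMs. Rrm2, the regulated subunit of ribonucleotide reductase, read 7.78, 7.77 and 7.64 in WT macrophages, 7.86, 7.96 and 8.27 in WT TAMs, 6.41, 6.65 and 6.60 in KO macrophages and 5.62, 6.22 and 5.26 in KO TAMs. KO TAMs lay below KO macrophages, which lay below both WT groups, and Rrm2 differed by -1.18 ± 0.20 in macrophages and -2.33 ± 0.20 in TAMs (5.02-fold lower, 19.9 percent of the WT intensity, adjusted p = 7.21e-05). A second, dim Rrm2 probe set, with group means of 3.0 to 3.29, differed by 0.01 and -0.22. Rrm1, the large subunit of the same enzyme, differed by -1.09 ± 0.17 in macrophages and -1.72 ± 0.17 in TAMs. Tk1, the thymidine kinase of S phase, read 8.24, 8.08 and 7.94 in WT macrophages, 8.90, 8.09 and 9.20 in WT TAMs, 6.99, 7.08 and 7.05 in KO macrophages and 6.79, 7.06 and 6.66 in KO TAMs. It differed by -1.05 ± 0.22 and -1.90 ± 0.22, again without overlap between genotypes. Dut, which removes dUTP, differed by -0.56 ± 0.11 and -1.17 ± 0.11, and by -0.23 and -0.56 by a second, dim probe set.

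Tyms, the enzyme that makes thymidylate, was the nucleotide gene that did not pass between macrophages. It read 7.07, 7.05 and 7.08 in WT macrophages, 7.58, 6.77 and 8.01 in WT TAMs, 6.84, 6.81 and 6.81 in KO macrophages and 6.29, 6.63 and 6.45 in KO TAMs. The macrophage groups did not overlap but lay close, with a difference of -0.25 ± 0.23 (95% interval -0.75 to 0.25, adjusted p = 0.554). In TAMs Tyms differed by -0.99 ± 0.23 (adjusted p = 0.0144), and without WT TAM 1 this call was lost (adjusted p = 0.0503). WT TAM 2 read below all WT macrophage arrays and below the KO macrophage arrays, while WT TAM 1 and 3 read above them.

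Of the regulators of entry into S phase, 4 of 5 were lower in KO cells of each culture. E2f8, a repressor of the E2F family that is itself made in S phase, had the largest genotype difference of all members. It read 8.91, 8.98 and 9.02 in WT macrophages, 8.90, 8.21 and 9.23 in WT TAMs, 7.12, 7.54 and 7.45 in KO macrophages and 6.56, 6.60 and 6.13 in KO TAMs. The genotypes did not overlap in either culture, and E2f8 differed by -1.60 ± 0.22 in macrophages (3.03-fold lower, adjusted p = 0.00111) and -2.35 ± 0.22 in TAMs (5.11-fold lower, adjusted p = 0.000115). E2f7, the other repressor of this kind, differed by -0.89 ± 0.12 in macrophages and -1.53 ± 0.12 in TAMs, where its adjusted p of 5.84e-05 was the lowest of all members. E2f2, an activator, differed by -0.79 ± 0.18 and -1.36 ± 0.18, and Ccne1, cyclin E1, by -0.50 ± 0.14 and -0.75 ± 0.14.

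E2f1, an activator of the family, was the 1 member that passed in neither genotype comparison. It read 7.48, 7.66 and 7.82 in WT macrophages, 7.83, 7.35 and 7.82 in WT TAMs, 7.39, 7.37 and 7.53 in KO macrophages and 7.38, 7.29 and 7.26 in KO TAMs. WT and KO arrays overlapped in both cultures, with WT TAM 2 at 7.35 inside the KO range. The difference was -0.22 ± 0.13 in macrophages (95% interval -0.51 to 0.06, adjusted p = 0.332) and -0.36 ± 0.13 in TAMs (95% interval -0.64 to -0.07, adjusted p = 0.108). Without WT TAM 2, alone or together with KO TAM 1, E2f1 passed in TAMs.

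All 3 genes of chromatin assembly were lower in KO cells of both cultures. Uhrf1, which guides maintenance DNA methylation behind the fork, read 7.83, 7.84 and 7.56 in WT macrophages, 8.25, 7.55 and 8.47 in WT TAMs, 6.55, 6.86 and 6.88 in KO macrophages and 6.05, 6.07 and 6.19 in KO TAMs. The genotypes did not overlap, and Uhrf1 differed by -0.98 ± 0.19 in macrophages and -1.99 ± 0.19 in TAMs (3.96-fold lower, adjusted p = 0.000139). Chaf1a and Chaf1b, subunits of the chromatin assembly factor that places histones on new DNA, differed by -1.04 ± 0.16 and -0.54 ± 0.12 in macrophages and by -1.45 ± 0.16 and -1.32 ± 0.12 in TAMs. Of the 3 recombination genes, Exo1, a nuclease that resects DNA ends, differed by -0.83 ± 0.20 and -1.66 ± 0.20. Brca2, which acts in repair by homologous recombination, differed by -0.48 ± 0.10 and -1.10 ± 0.10. Brca1, which acts before it in the same pathway, did not pass in macrophages (-0.46 ± 0.14, adjusted p = 0.0565) and differed by -1.13 ± 0.14 in TAMs.

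Of the 35 macrophage calls, 25 held without each of the 6 macrophage arrays in turn, and of the 40 TAM calls 39 did. The 10 macrophage calls that were lost without at least 1 array were Ccne1, Chaf1b, E2f2, Exo1, Gins3, Orc1, Pola2, Pold1, Rfc3 and Rfc5. Like that of Orc1, the calls of Rfc3, Rfc5 and Ccne1 were lost whichever of the 6 macrophage arrays was left out. The adjusted p was then 0.0594 to 0.13 for Rfc3, 0.0606 to 0.0739 for Rfc5 and 0.0885 to 0.131 for Ccne1. The TAM call lost was Tyms. With the TAM groups fitted alone, 5 TAM calls were lost, those of Tyms (adjusted p = 0.123), Rfc3 (0.0944), Ccne1 (0.0793), Rfc5 (0.0539) and Pold1 (0.0502). Other settings ended the macrophage calls of Fen1 with the mean of its probe sets (adjusted p = 0.0763), of Orc1 with the replicate block (0.0622) and a trended robust spread (0.0534), and of Rfc3 (0.0556) and Ccne1 (0.0509) with the replicate block.

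The co-culture differences had medians nearer 0 than the genotype differences, and 7 of their 9 member calls were lost without some single array. At an unadjusted p under 0.05 there were 11 members in WT co-culture, against 23.5% of all genes, and 15 in KO co-culture, against 20.1%. In WT TAMs 6 of 41 members were higher than in WT macrophages and 0 were lower, against 5.89% of all genes higher and 5.66% lower. The 6 were Chaf1b, Mcm2, E2f7, Cdt1, Dut and Pcna. The difference was above 0 in 36 members, as in 51.3% of all genes, with a median of 0.24 against 0.01 over all genes. The WT TAM arrays lay above all WT macrophage arrays in 9 members, as in 15.5% of all genes, and below them in 1, Brca2, as in 14.6% of all genes. In KO TAMs 3 of 41 members, Brca2, E2f8 and Rrm2, were lower than in KO macrophages and 0 were higher, against 3.63% of all genes lower and 2.90% higher. Here the difference was below 0 in 37 members, as in 52.9% of all genes, with a median of -0.21 against -0.01 over all genes. The KO TAM arrays lay below all KO macrophage arrays in 21 members, as in 14.6% of all genes, and above them in 0, as in 11.7% of all genes.

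Chaf1b had the largest rise in WT TAMs. It read 7.89, 7.87 and 7.88 in WT macrophages, 8.63, 8.50 and 8.84 in WT TAMs, 7.15, 7.50 and 7.35 in KO macrophages and 7.26, 7.22 and 7.54 in KO TAMs. All 3 WT TAM arrays, array 2 included, lay above all other arrays, and the rise was 0.78 ± 0.12 (1.72-fold, adjusted p = 0.00157), the 1 member call of this comparison that held without each array in turn. In KO cells its difference was 0.0 ± 0.12 (95% interval -0.26 to 0.27). Mcm2 read 7.80, 7.92 and 7.79 in WT macrophages, 8.51, 7.98 and 9.01 in WT TAMs, 6.88, 6.88 and 6.92 in KO macrophages and 6.73, 6.87 and 6.90 in KO TAMs. Its WT TAM arrays lay above the macrophage arrays by amounts that differed widely, with a rise of 0.67 ± 0.19 (adjusted p = 0.0409) and a KO difference of -0.06 ± 0.19. E2f7 read 6.44, 6.51 and 6.43 in WT macrophages, 7.23, 6.68 and 7.03 in WT TAMs, 5.46, 5.62 and 5.62 in KO macrophages and 5.57, 5.39 and 5.40 in KO TAMs. Its rise in WT TAMs was 0.52 ± 0.12 (adjusted p = 0.0174), and its KO groups overlapped.

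The other 3 members called in WT TAMs had smaller rises. Cdt1 rose by 0.45 ± 0.13 (adjusted p = 0.0459), Dut by 0.45 ± 0.11 (adjusted p = 0.0211) and Pcna by 0.41 ± 0.11 (adjusted p = 0.0272). Each of these calls was lost without at least 1 of the 6 arrays, as were those of Mcm2 and E2f7. Fen1 (0.41 ± 0.12, adjusted p = 0.0513) and Tk1 (0.64 ± 0.22, adjusted p = 0.0885) had differences of similar size and did not pass. Mcm10 had the lowest difference, -0.37 ± 0.19 (adjusted p = 0.269).

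Leaving out WT TAM 2 raised the number of calls in the WT co-culture comparison. WT TAM 1 read above all WT macrophage arrays in 33 members and below all of them in 5, WT TAM 3 in 39 and 1, and WT TAM 2 in 11 and 24. Over all genes these shares were 34.9% and 32.1%, 34.8% and 31.6%, and 34.2% and 34.5%. Without WT TAM 2, 21 of 41 members were higher, as were 1417 of 22180 genes, and the median difference was 0.43. Tk1 was then at 0.96 ± 0.14 (adjusted p = 0.00142), Mcm2 at 0.93 ± 0.13 (adjusted p = 0.00137) and Tyms at 0.73 ± 0.13 (adjusted p = 0.00467). WT TAM 2 was the lowest WT TAM array in 36 members, so leaving it out raises their WT TAM mean. These p-values follow that choice and are descriptive. Without WT TAM 3, 1 member was higher and 1 lower, against 957 and 984 genes. WT TAM 2 was also the WT TAM array with the highest mean of the stromal markers, given above, whose part in the result was not tested.

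Brca2 fell in KO TAMs on every array. It read 7.14, 7.25 and 7.33 in WT macrophages, 7.06, 6.81 and 7.11 in WT TAMs, 6.70, 6.83 and 6.76 in KO macrophages and 5.85, 6.01 and 5.82 in KO TAMs. The KO TAM arrays lay below all others, with a fall of -0.87 ± 0.10 (adjusted p = 0.000547) that held without each array in turn, while in WT cells the difference was -0.26 ± 0.10 (adjusted p = 0.136). E2f8 fell in KO TAMs by 0.94 ± 0.22 (adjusted p = 0.026) and Rrm2 by 0.85 ± 0.20 (adjusted p = 0.0243), and both calls were lost without some arrays, with an adjusted p of 0.0697 to 0.103 for E2f8 and of 0.0514 to 0.0929 for Rrm2. Mcm5 (-0.75 ± 0.24, adjusted p = 0.0951), Pole (-0.70 ± 0.20, adjusted p = 0.0598) and Exo1 (-0.68 ± 0.20, adjusted p = 0.0612) had large differences that did not pass. KO TAM 1, 2 and 3 read below all KO macrophage arrays in 31, 25 and 33 members, against 35.5%, 32% and 34.7% of all genes.

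**Figure D3:**
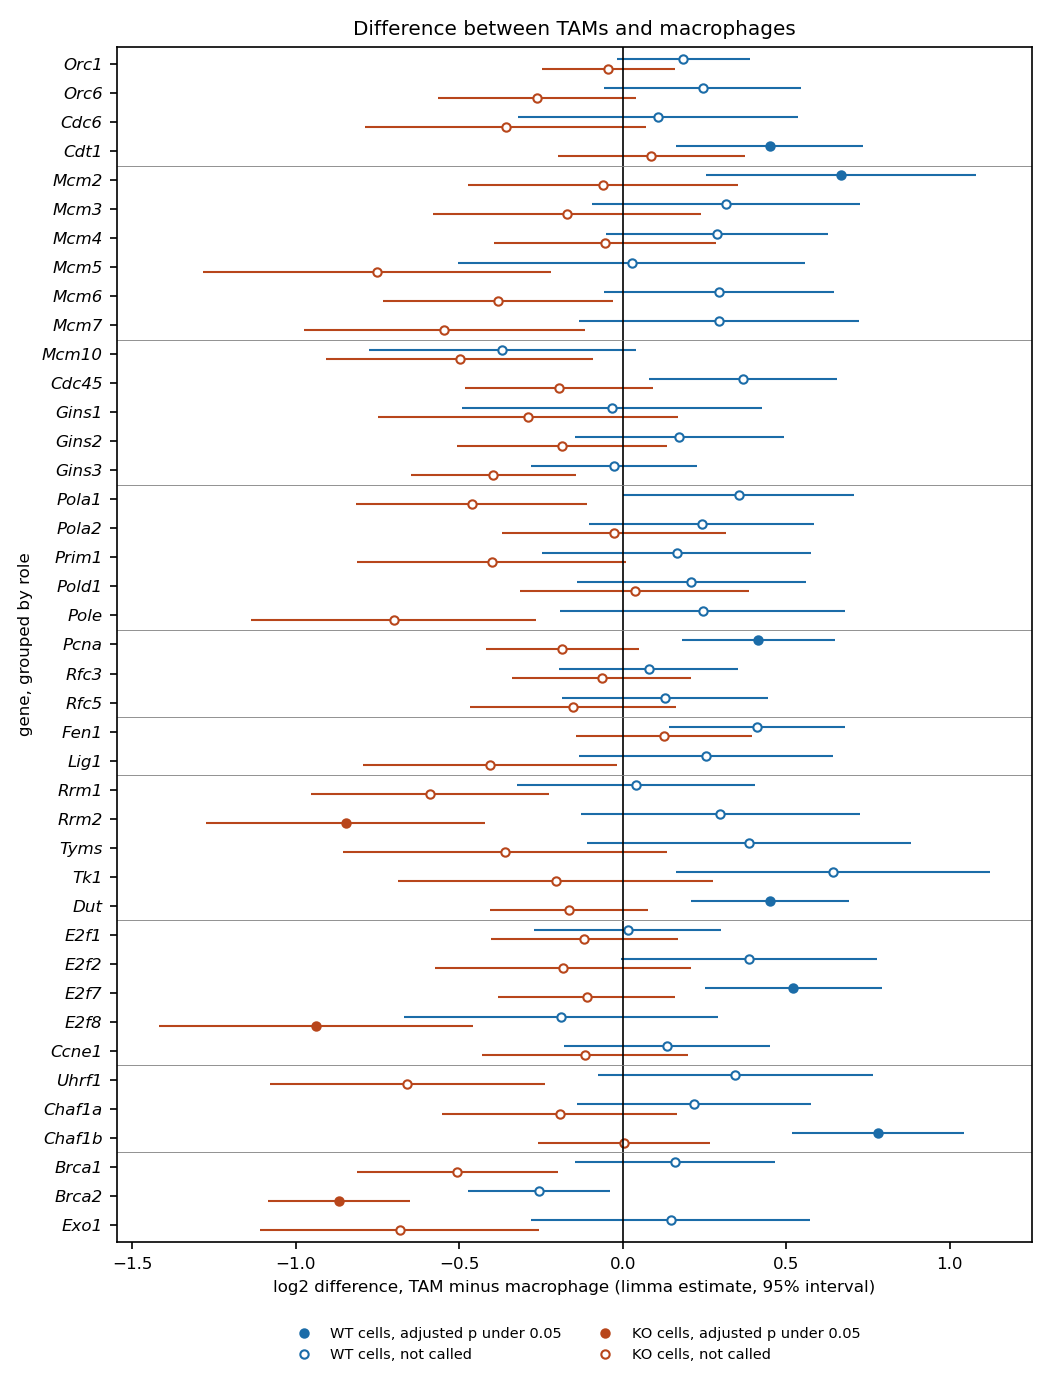
Log2 difference TAM minus macrophage for each member with its 95% interval from the limma fit, in WT cells (blue) and KO cells (orange); filled points passed the test and open points did not. Most WT points lie right of 0, up to 0.78 for Chaf1b, and most KO points left of 0, down to -0.94 for E2f8, with 6 and 3 filled points.

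Whether co-culture acted differently in the genotypes was tested by the interaction, the KO co-culture difference minus the WT one. By limma 0 of 41 members were called, against 0.104% of all genes higher and 0.0902% lower, and 24 members had an unadjusted p under 0.05, against 9.60% of all genes. The interaction was below 0 in all 41 members, as in 54.3% of all genes, with a median of -0.57 against -0.02. The lowest adjusted p were those of Chaf1b (-0.78 ± 0.17, adjusted p = 0.111), Brca2 (-0.61 ± 0.14, adjusted p = 0.129) and Rrm2 (-1.15 ± 0.28, adjusted p = 0.149), and the value nearest 0 was that of Mcm10 (-0.13 ± 0.27). Without WT TAM 2, 14 members were called, all lower, of 151 genes lower in all, among them Uhrf1 (-1.27 ± 0.18, adjusted p = 0.0097), Pole (-1.22 ± 0.19, adjusted p = 0.0146) and Tk1 (-1.17 ± 0.18, adjusted p = 0.0149). Without WT TAM 2 and KO TAM 1 together it was 24 members, all lower, of 839 genes lower in all. With array weights it was 12 of 378, and without KO TAM 2 it was 1 of 15, again all lower. WT TAM 2 stood apart in these same member values, so the p-values without it are descriptive.

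The members with an E2F word in any of their RefSeq windows, those with a start further into the gene included, and those without differed in the same direction. In TAMs the median genotype difference was -1.44 in the 16 members with a word, -1.25 in the 20 with a window and no word and -1.27 in the 5 without a window. In macrophages it was -0.89, -0.65 and -0.90. These medians describe small groups and were not tested.

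Related genes outside the 41 members were read by list. For all the lists below, the shares of all genes higher and lower were 5.19% and 6.13% in KO macrophages and 5.03% and 7.19% in KO TAMs. In co-culture they were 5.89% and 5.66% in WT cells and 2.90% and 3.63% in KO cells. Of 39 other replication factors, 15 were lower and 1 higher in KO macrophages, and 24 lower and 1 higher in KO TAMs. Among those lower in both were Ticrr, which helps to start origins (-1.15 and -1.84), and Clspn, the checkpoint adaptor at the fork (-0.91 and -1.70). Others were Rpa2, a subunit of the single-strand binding protein (-0.95 and -1.20), and Mtbp, a partner of Ticrr (-0.89 and -1.21). The lowest difference of the list was -1.22 in KO macrophages and -1.84 in KO TAMs. The 1 higher in both was Orc4 (0.42 and 0.46), a core subunit of the origin recognition complex, and was named after its value was seen. In WT co-culture 1 of the 39 was higher (2.56%) and 2 lower (5.13%), both below the shares of all genes. In KO co-culture 5 were lower (12.8%). Pole4, a small polymerase epsilon subunit, fell in both, by 0.86 ± 0.17 in WT and by 0.90 ± 0.17 in KO cells.

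Of 23 other S-phase genes of nucleotide synthesis and chromatin, 10 were lower and 2 higher in KO macrophages, and 13 lower and 2 higher in KO TAMs. Asf1b, a histone chaperone, differed by -1.13 and -2.06, and Hells, a chromatin remodeller, by -0.80 and -1.71. Rrm2b, the ribonucleotide reductase subunit used outside S phase, was higher in KO cells of both cultures (0.50 ± 0.11 and 0.39 ± 0.11), opposite to Rrm2. Samhd1, which breaks down dNTPs in resting cells, was higher in KO TAMs (0.60 ± 0.10). Both fell in WT co-culture, Samhd1 by 0.76 ± 0.10 and Rrm2b by 0.64 ± 0.11. The genotype difference of Rrm2b was smaller in TAMs than in macrophages, so its KO co-culture difference was negative too, and larger in size. Of the 23 genes, 2 were higher and 3 lower in WT co-culture, and 2 higher and 4 lower in KO co-culture.

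Of 20 genes of S-phase recombination and checkpoints, 14 were lower in KO macrophages and 17 in KO TAMs, with 0 higher. Wee1, the kinase that restrains Cdk1, differed by -1.16 and -1.42, Fancd2, a Fanconi anaemia protein that guards stalled forks, by -1.14 and -1.71, and Rad54l, a recombination motor, by -1.09 and -1.87. In co-culture 1 was higher in WT cells (5%, against 5.89% of all genes), Wee1 (0.86 ± 0.17), and in KO cells 1 was higher and 2 lower. The KO co-culture difference of Wee1 was positive too, and the highest KO difference of the list was 0.60. Brip1, a helicase partner of Brca1, had the lowest difference in KO co-culture (-0.89 ± 0.15).

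Of 30 G1 cyclins, kinases, inhibitors and pocket proteins, 13 were lower and 2 higher in KO macrophages, and 17 lower and 3 higher in KO TAMs. Ccnd2, cyclin D2, differed by -1.98 ± 0.35 and -1.93 ± 0.35, Cdk6, its partner kinase, by -1.21 ± 0.17 and -1.32 ± 0.17, and Ccna2, cyclin A2, by -1.66 ± 0.42 and -2.46 ± 0.42. Btg2, an inhibitor of proliferation, was higher by 0.92 ± 0.10 and 0.83 ± 0.10. In KO TAMs the inhibitor Cdkn1b (p27) was also higher (0.66 ± 0.13). Btg2 and Cdkn1b were named after their values were seen, and the values of the list's other inhibitors are not given here. Co-culture moved several of these genes in both genotypes. Ccnd2 rose by 1.50 ± 0.35 in WT and 1.55 ± 0.35 in KO cells and Cdk6 by 0.82 ± 0.17 and 0.71 ± 0.17. Myc fell by 1.22 ± 0.32 and 1.19 ± 0.32 and Cdkn1b by 0.88 ± 0.13 and 0.59 ± 0.13. Over the whole list, 5 genes of this list rose and 4 fell in WT co-culture, and 2 rose and 3 fell in KO co-culture.

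Only 20 of 50 listed replication-dependent histone genes were measured, and near-identical copies make their values uncertain. In KO macrophages 6 were lower and 1 higher, and in KO TAMs 9 lower and 1 higher. H1f5 differed by -2.01 ± 0.43 and -2.65 ± 0.43, and H2aw, the 1 higher in both, by 1.58 ± 0.11 and 1.48 ± 0.11. The G2/M genes, which act after replication, were lower as well: 23 of 25 in KO macrophages, with a median of -1.44, and 25 of 25 in KO TAMs, with a median of -2.05. Plk1, a mitotic kinase, differed by -1.97 ± 0.35 and -2.41 ± 0.35, and Ccnb2, cyclin B2, by -2.03 ± 0.47 and -2.50 ± 0.47. By limma 0 of the 25 were called in WT co-culture and 0 in KO co-culture. At an unadjusted p under 0.05 there were 0 and 1, against 23.5% and 20.1% of all genes.

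**Figure D4:**
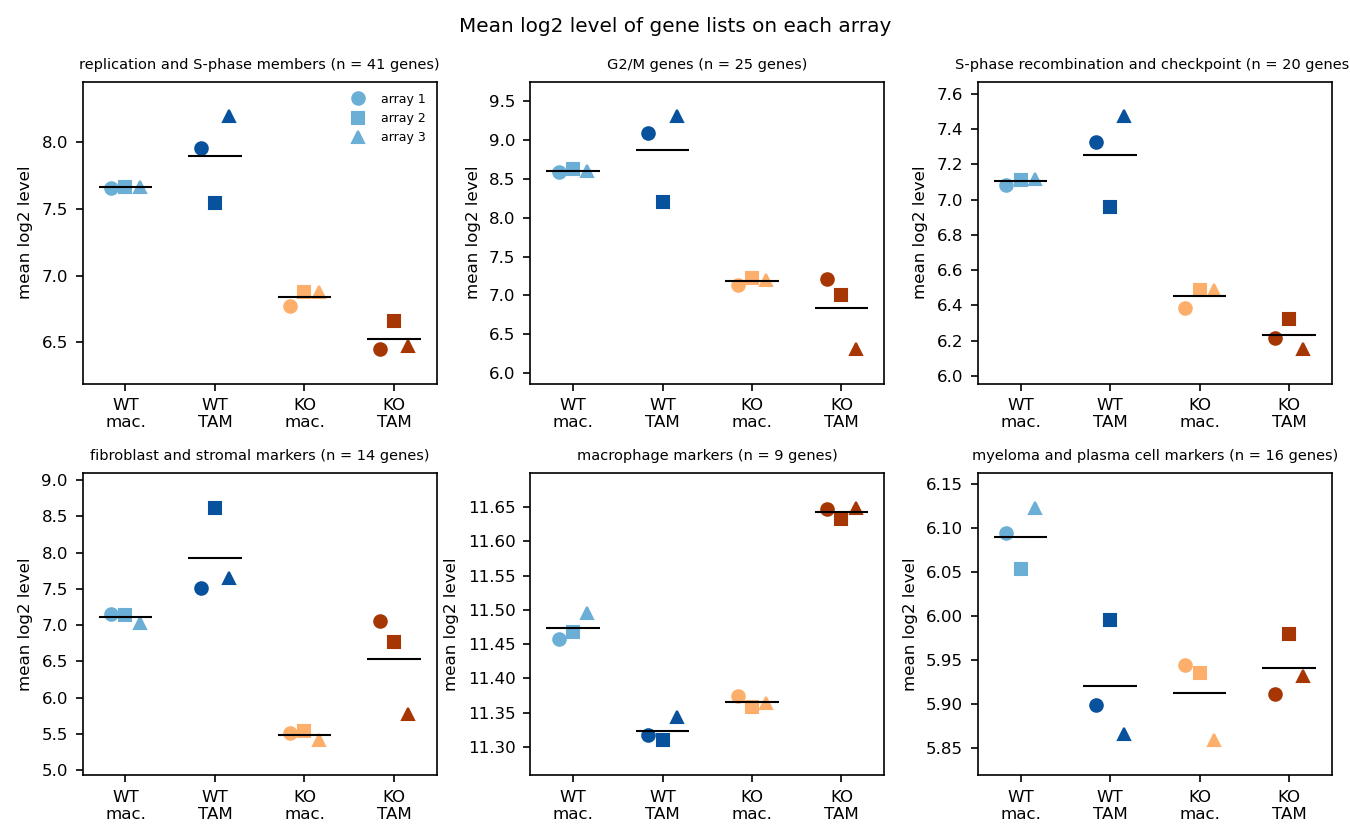
Mean log2 level of 6 gene lists (vertical axes, each with its own range that does not start at 0) on each array, by group; symbols mark arrays 1, 2 and 3 and the black line their mean. The members and the G2/M genes have all their KO arrays below all their WT arrays, and WT TAM 2 is the lowest WT TAM array in both and the highest in the stromal markers.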

How the data were processed

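Each of the 12 samples was hybridised to 1 single-channel whole-transcript array after labelling with biotin, per the labels' protocols. The authors deposited 1 table of intensity values, made with RMA per the submitters' processing notes, which also name limma. RMA subtracts background, forces arrays onto a common distribution and summarises probes, so a change shared by most genes would not be seen. The sources used here name no genome build. The deposited intensity values were linear, from 3.57 to 13455, and log2 was taken without a pseudocount. Of 41345 probe sets, 23521 had 1 gene symbol and were kept, 1814 had several and 16010 none. For the 1082 genes with several probe sets, the brightest on average was used, which left 22180 genes. RefSeq (GRCm38.p6) was matched through the Entrez identifier for 23328 probe sets, and 0 symbols changed.

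limma 3.58.1 in R 4.3.3 fitted 4 group means to all 12 arrays, with 8 residual degrees of freedom, and adjusted p over all genes. The fit was tested on simulated data. Array medians were 31.3 to 33.3, and precision is limited by the number of arrays. All members were described, and up to 6 called genes a related list were eligible to be named, largest first. Btg2, Cdkn1b, Orc4, Rrm2b and Samhd1 were added after their values were seen. The members and the lists were chosen with earlier results of these data known.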

Additional observations from a re-analysis of the deposited data

How the results depend on the processing

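No called member changed sign under any alternative run. The 35 member calls between macrophages became 27 to 30 without 1 array and 32 to 38 otherwise, and the 40 between TAMs became 39 to 41 and 35 to 41, the lowest with a separate fit. In WT co-culture, 6 calls became 3 with a separate fit, 16 with array weights, 22 without WT TAM 2 and KO TAM 1 (a pair left out because earlier results set them apart), and 1 to 21 without 1 array. In KO co-culture, 3 became 9 of 40 with genes above the median level only, 5 with a trended robust spread and 6 with array weights. The count was 8 without both arrays and 1 to 6 without 1 array. Lower calls over all genes in KO co-culture were 806 of 22180, and became 1107 of 11090 with genes above the median level only. They were 916 with a trended robust spread, 1492 with array weights and 1195 without both arrays. The interaction called 0 members, and 12 with array weights, 24 without both arrays and 0 to 14 without 1 array. With the replicate block the member counts were 6, 3, 32, 40 and 0, in the order WT co-culture, KO co-culture, macrophages, TAMs and interaction. The numbers were not taken as pairs in the main fit. An array correlated best with its own number in 11 of 36 cases. Same-numbered arrays of different groups correlated at -0.056 to 0.271 in their deviations from the group means over all genes. The highest of these lay between WT TAMs and KO TAMs, at 0.271, 0.247 and 0.033 for arrays 1, 2 and 3. Unlike-numbered arrays of these TAM groups correlated at -0.284 to 0.071. Whether TAM arrays of the same number belong together was not tested.

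Over all genes, the 2561 calls in WT co-culture became 3976 with array weights, 4049 without both arrays and 1475 to 2671 without 1 array. The 1449 in KO co-culture became 505 with a separate fit, 2705 with array weights and 611 to 1659 without 1 array. The 2512 between macrophages became 4716, 4923 and 4558 with a separate fit, with array weights and without both arrays, and 1403 to 1503 without 1 array. The 2710 between TAMs became 638, 4725 and 4480 in the same order, and 1749 to 3710 without 1 array, and with arrays centred on their medians they were 750 higher and 1953 lower in place of 1116 and 1594. The 43 of the interaction became 105 with log2(value + 16), 100 with genes above the median level only, 99 with a trended robust spread, 761 with array weights, 26 with the replicate block, 1496 without both arrays and 14 to 444 without 1 array. The cause of these shifts was not tested. The TAM arrays varied more than the macrophage arrays, and 1 common spread was used for both.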
